A study of Homo sapiens with 12 samples.

Results

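Laminin chains were followed on the arrays of the lung cancer lines CL1-0 and CL1-5. The members are 8 listed laminin genes (LAMA1, LAMA3, LAMA4, LAMA5, LAMB1, LAMB2, LAMB3 and LAMC1), taken through every probe set whose annotation names only that gene. This gave 14 of the 54675 probe sets on the array, for 7 of the 8 genes, out of 19775 genes named alone by a probe set. No probe set carries the name LAMA3 in the annotation used here, so LAMA3 was not analysed. The 12 samples are human lung adenocarcinoma cells, 3 biological replicates in each of 4 groups: CL1-0 without a field, CL1-0 under a direct-current electric field of 300 mV/mm, CL1-5 without a field and CL1-5 under the same field. Cells of every group were grown overnight in a microfluidic chip, spent 2 h in serum-free medium with the field on or off, and were detached with trypsin. The comparisons ask how the lines differ and how each responds to the field. CL1-5 is known as a more invasive subline of the same origin as CL1-0, and each line is a single established line, so a line difference is one between 2 lines and not between 2 classes of tumour. The labels do not say whether replicates were separate cultures, and p-values weigh a difference against the spread between these samples.

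Laminins are the secreted glycoproteins that first assemble a basement membrane, the thin matrix under epithelia and around vessels and muscle. Each molecule is a cross-shaped trimer of an alpha, a beta and a gamma chain wound together in a coiled coil, and the identity of the chains decides which laminin is made. The end of the alpha chain binds integrins and dystroglycan on the cell, while the gamma chain LAMC1 binds nidogen, which links laminin to type IV collagen. LAMB3 belongs with LAMA3 to the epithelial laminin that anchors skin and airway cells at hemidesmosomes and along which carcinoma cells migrate. LAMA5 is the main alpha chain of adult epithelial basement membranes, including that of the lung.

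Values are array signals in linear intensity units, and differences are on the log2 scale, each with its standard error (SE) from limma, fitted to all 12 arrays together. The median signal of an array lay between 60.7 and 72.4, and a probe set was kept for testing when its signal exceeded the array median on at least 3 arrays. Of the 14 laminin probe sets 8 were kept, covering LAMA1, LAMA5, LAMB1, LAMB2, LAMB3 and LAMC1, and 13882 genes in all were tested, each by its brightest kept probe set. A gene was called at a Benjamini-Hochberg adjusted p below 0.05. Replicate 1 of every group stood apart from replicates 2 and 3. Its arrays gave 3.64 to 14.5 for dap, a poly-A control transcript added during labelling, against 1253 to 1665 on the other 8, and 49.7 to 134.1 for 18S ribosomal RNA against 5577 to 8406. Each group holds 1 such array.

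Epithelial identity was checked on 9 markers. The keratin genes KRT8 and KRT18 exceeded the array median on 6 of 6 arrays of each line, as did the lung genes NKX2-1 and SFTPB. The signals of these lung genes were low, with NKX2-1 at 129 to 290 in CL1-0 and 70.5 to 167 in CL1-5. SFTPB lay at 140 to 284 and 77.4 to 202, so both came close to the array medians in CL1-5. EPCAM exceeded the array median on 6 of 6 arrays of CL1-0 and 0 of 6 of CL1-5, and KRT19 on 2 and 0. CDH1 exceeded it on 6 and 3, at 183.0 to 1506 in CL1-0 and 16.4 to 176.7 in CL1-5. For NAPSA these counts were 4 and 6, and for KRT7 6 and 6. KRT18 was the brightest of the 9 and weighs most in their sum, at 2422 to 19767 in CL1-0 and 13748 to 29022 in CL1-5. In each group 6 or 7 of the 9 markers exceeded the median on all 3 arrays, and their summed signal ran from 3619 to 25061 in CL1-0 and from 16774 to 32977 in CL1-5. Of 6 fibroblast markers 1 or 2 did so in a group, the sum was 460.2 to 904.9 in CL1-0 and 322.9 to 534.4 in CL1-5, and COL1A1 exceeded the array median on 6 of 6 arrays of each line. In CL1-0 and CL1-5 the array median was exceeded on 5 and 2 arrays by DCN, 3 and 0 by COL3A1, 2 and 2 by PDGFRB, 0 and 2 by COL1A2 and 0 and 1 by LUM. Of 4 endothelial markers 1 or 2 did so, with sums of 137.6 to 218.7 in CL1-0 and 331.3 to 1735 in CL1-5. PECAM1 exceeded the array median on 6 of 6 arrays of each line and reached 1559 in CL1-5, KDR did so on 1 array of CL1-0 and 5 of CL1-5, and CDH5 and VWF on 0 of either. Of 3 leukocyte markers 0 did so, with sums of 73.8 to 150.3 and 89.1 to 168.1, and CD3E exceeded the array median on 3 arrays of each line and PTPRC and CD14 on 0. The part of other cell types in the differences below was not tested.

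Without the field, the laminin genes did not differ between the lines in one direction. LAMB3 was higher in CL1-5, LAMA5 and LAMA1 were lower, and LAMB1, LAMB2 and LAMC1 did not pass the test. So 1 of 6 tested laminin genes was called higher and 2 lower, where 9.03% of all genes were called higher and 8.93% lower (18% in either direction). Their median difference was −0.36, against −0.03 over all genes. Under the field the same 3 genes were called, 1 higher and 2 lower, with 9.81% of all genes called higher and 9.63% lower (19.4% in either direction), a median of −0.42 and −0.08 over all genes. Fitted over all kept probe sets, 2 of the 8 laminin probe sets were called without the field, 1 higher and 1 lower (12.1% of all probe sets, 6.53% higher and 5.58% lower), and 3 under it, 1 higher and 2 lower (13.4%, 7.03% higher and 6.41% lower). For 3 of the 6 genes the line groups were fully separate in either setting (no overlap), which held for 34% of all genes without the field and 35.8% under it. LAMA1, which counts among the lower and the separate genes, passed the filter only through CL1-0. With a block for the replicate 1 arrays, which had little dap signal, LAMB1 and LAMC1 were also called without the field (adjusted p = 0.0164 and 0.0128, limma). Under the field that fit added LAMB1 (adjusted p = 0.0126, limma). It called 35% of all genes without the field and 37.5% under it. With so few members, these counts say nothing of the family beyond the genes named.

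**Figure D1:**
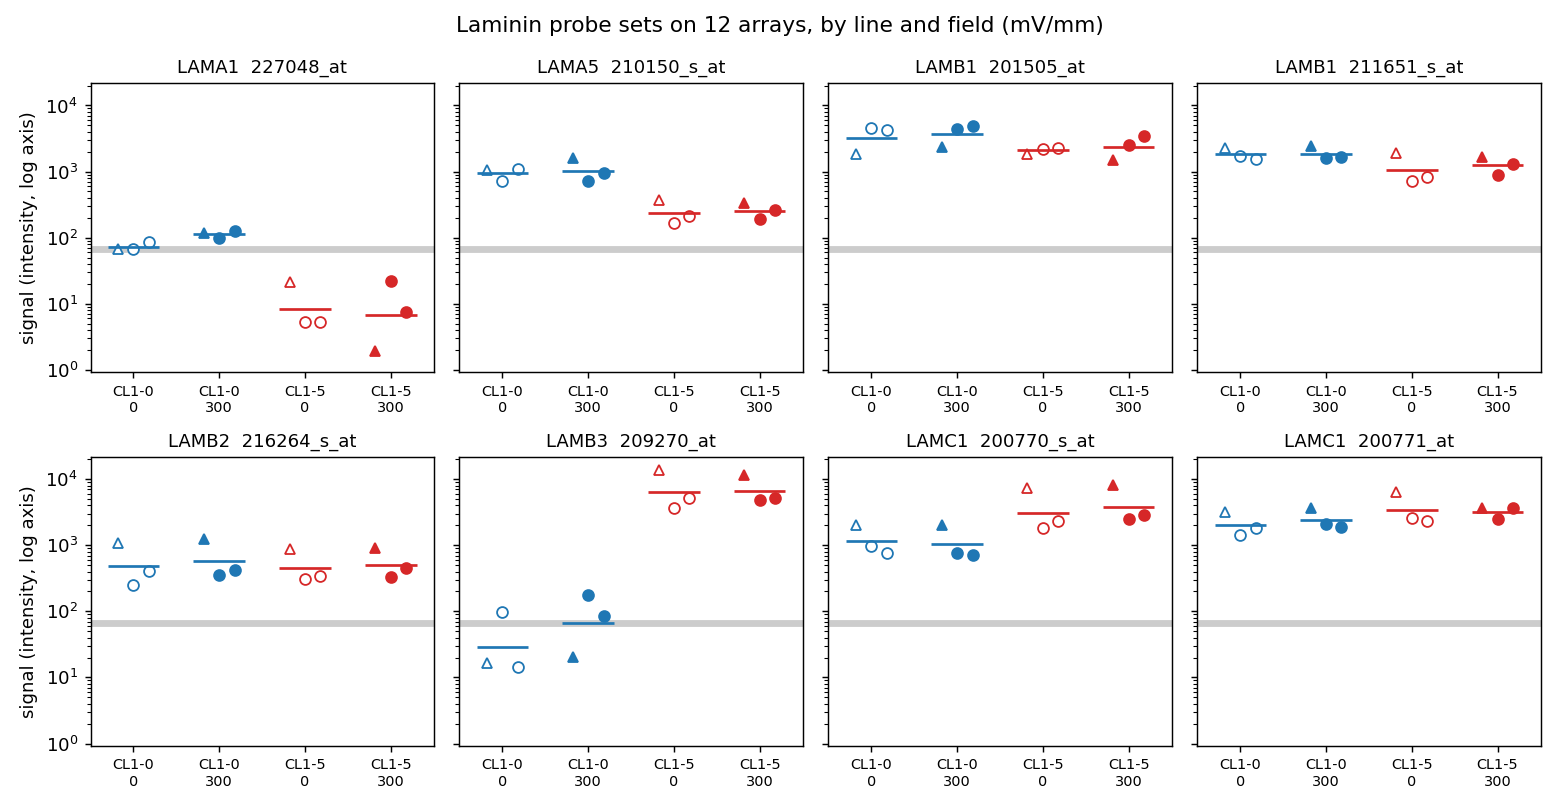
Signal of the 8 kept laminin probe sets on the 12 arrays, on a log axis in intensity units. Groups are CL1-0 (blue) and CL1-5 (red) at 0 (open) and 300 mV/mm (filled), triangles mark replicate 1, short lines the mean of log2 values, and the grey band the range of array medians (60.7 to 72.4). LAMB3 lies at 3639 or above on every CL1-5 array and at 177 or below on every CL1-0 array, and the triangles of LAMB2 and LAMC1 lie highest in each group.

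Beta chains came first in the size of the line difference, through LAMB3. Its 3 transcription starts in the RefSeq promoter table (GRCh38.p14) lie on the minus strand of chromosome 1. The windows at the outermost and the innermost start are shown because LAMB3 had the largest difference among the laminin genes, and the promoter of LAMA5, on the minus strand of chromosome 20, because it differed in the opposite direction. Each window runs from 250 bases before to 50 bases after the start, 5′ to 3′. Capitals mark matches on either strand to TGANTCA (the AP-1 motif, N being any base), GGGCGG (the GC box) and CAGGTG (an E-box of the kind bound by Snail and ZEB repressors).
LAMB3, outermost start, chr1:209652376-209652675: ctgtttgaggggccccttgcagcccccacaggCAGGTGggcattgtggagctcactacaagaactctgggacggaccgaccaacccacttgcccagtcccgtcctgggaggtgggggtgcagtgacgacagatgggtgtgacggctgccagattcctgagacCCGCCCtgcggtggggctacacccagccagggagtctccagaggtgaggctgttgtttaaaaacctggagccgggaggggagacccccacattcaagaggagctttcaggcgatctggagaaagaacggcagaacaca
LAMB3, innermost start, chr1:209651325-209651624: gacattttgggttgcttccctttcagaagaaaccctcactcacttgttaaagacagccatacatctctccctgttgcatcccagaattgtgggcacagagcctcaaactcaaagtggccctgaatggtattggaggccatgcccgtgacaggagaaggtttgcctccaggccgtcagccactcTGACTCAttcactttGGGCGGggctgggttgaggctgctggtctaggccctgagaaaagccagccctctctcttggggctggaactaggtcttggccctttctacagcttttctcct
LAMA5, chr20:62367263-62367562: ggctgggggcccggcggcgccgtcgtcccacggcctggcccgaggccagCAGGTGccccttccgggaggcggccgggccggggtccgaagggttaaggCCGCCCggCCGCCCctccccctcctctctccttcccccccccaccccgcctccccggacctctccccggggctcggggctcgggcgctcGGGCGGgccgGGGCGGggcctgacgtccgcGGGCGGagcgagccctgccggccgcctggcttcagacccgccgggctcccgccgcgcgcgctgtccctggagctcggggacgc

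The innermost LAMB3 window holds 1 match to TGANTCA at 67 bases before the start and 1 GC box at 52 bases before it. The outermost window holds 1 E-box at 218 bases and 1 GC box at 88 bases before its start, and the middle window, which overlaps the outermost one, holds the same GC box. The LAMA5 window has 82.7% G and C, 5 GC boxes, 1 E-box at 201 bases before the start and 0 matches to TGANTCA. Among 35116 promoter windows of 300 bases, 7.71% hold TGANTCA, 45% GGGCGG and 20.6% CAGGTG. Windows were found for 7 of the 8 listed genes (all but LAMA1). LAMA3, not measured here, holds 2 TGANTCA matches, at 125 and 69 bases before its start, and the windows of LAMA4, LAMB1, LAMB2 and LAMC1 hold 0. A match describes the letters of the window, not a site at which a factor acts.

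LAMB3 gave signals of 16.7, 99.3 and 14.5 in replicates 1 to 3 of CL1-0 without the field. In CL1-5 without the field the signals were 13629, 3639 and 5163. The lowest CL1-5 array was thus far above the highest CL1-0 array, and the groups did not overlap. On 2 of the 3 CL1-0 arrays LAMB3 lay below the array median, so its level there has no firm value and the fold depends on how low signals are treated. The fitted difference was 7.78 ± 0.87 (SE, n = 3 per line, adjusted p = 6.66e-05, limma). Raising every signal below its array's median to that median leaves a difference of 6.41, or at least 85.3-fold. In bulk RNA, fewer cells with a transcript and less transcript per cell cannot be told apart.

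Under the field LAMB3 signals were 20.1, 177 and 84.2 on the CL1-0 arrays. On the CL1-5 arrays they were 11496, 4791 and 5195. The order of the lines was the same, with no overlap, and the CL1-0 arrays straddled the array median. The difference was 6.62 ± 0.87 (SE, n = 3 per line, adjusted p = 0.000237, limma). With low signals raised, it was at least 65.7-fold. Within replicate numbers the line difference was 9.68, 5.20 and 8.48 without the field and 9.16, 4.76 and 5.95 under it. Replicate 1, without the spike-in signal, gave the largest of the 3 in both settings, and the mean of replicates 2 and 3 was 6.84 and 5.35.

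LAMB1, the beta chain of the earliest embryonic laminins and of many adult ones, was read by 2 kept probe sets. The probe set 201505_at gave 1832, 4568 and 4184 in CL1-0 and 1832, 2219 and 2304 in CL1-5 without the field. Signals in CL1-5 were lower in replicates 2 and 3 and equal in replicate 1, and the groups overlapped. The difference was −0.63 ± 0.40 (SE, n = 3 per line, adjusted p = 0.334, limma). The other probe set, 211651_s_at, gave 2260, 1746 and 1556 in CL1-0 and 1913, 707 and 831 in CL1-5, a difference of −0.82 ± 0.38 (adjusted p = 0.213 over all kept probe sets). Under the field the differences were −0.66 ± 0.40 and −0.58 ± 0.38, neither past the test. With the replicate number of all groups as a block, LAMB1 passed in both settings (adjusted p = 0.0187 and 0.0146), and 35.5% and 38.1% of all genes were called in that fit. The mean of its probe sets passed without the field (−0.73, adjusted p = 0.0364).

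Both LAMB1 probe sets thus lay lower in CL1-5, yet they moved in opposite directions between replicates. On 201505_at replicate 1 was the lowest array in 4 of 4 groups (1517 to 2374, against 2219 to 4883 in replicates 2 and 3). On 211651_s_at replicate 1 was the highest array in 4 of 4 groups (1677 to 2462 against 707 to 1746). The mean difference of replicate 1 from the others was −0.87 and 0.76. A probe set ending in _s_at can match more than one transcript, and which transcripts these 2 read was not analysed here.

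LAMB2, the beta chain of laminins at the neuromuscular junction and the kidney filter, gave 1086, 250.4 and 405 in CL1-0 and 889, 304 and 342 in CL1-5 without the field. The lines overlapped throughout, with a difference of −0.08 ± 0.64 (SE, n = 3 per line, adjusted p = 0.957, limma) and a 95% interval from −1.48 to 1.32. Under the field the arrays of CL1-0 gave 1244, 359 and 426 for LAMB2 and those of CL1-5 gave 902, 330.1 and 445 (−0.17 ± 0.64, adjusted p = 0.888). Its spread came from the replicates: replicate 1 lay at 889 to 1244 in the 4 groups and replicates 2 and 3 at 250.4 to 445, a mean difference of 1.53.

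Of the alpha chains, LAMA5 and LAMA1 could be tested by a probe set naming only that gene, and both were lower in CL1-5. LAMA1 was kept only through its CL1-0 arrays. LAMA5 gave 1058, 731 and 1094 in CL1-0 without the field, and 370.5, 164 and 214 in CL1-5. Every CL1-0 array was above every CL1-5 array, and all 6 arrays exceeded the array median, so this difference is measured on both sides. It was −2.01 ± 0.37 (SE, n = 3 per line, adjusted p = 0.00272, limma), a 4.02-fold lower signal in CL1-5. Under the field LAMA5 signals were 1577, 720 and 962 on the CL1-0 arrays, while the CL1-5 arrays gave 331, 189 and 266. The groups again did not overlap, and the difference was −2.01 ± 0.37 (adjusted p = 0.00265, limma). By replicate number the line difference ran from −1.51 to −2.35 without the field and from −1.86 to −2.25 under it. The probe set 229570_at, which names both LAMA5 and its antisense gene and was not used for either, did not show this direction. Under the field it was higher in CL1-5 (273.9 to 323.2) than in CL1-0 (85.6 to 200.8). Without the field the lines overlapped on it (211.3 to 264.6 and 30.6 to 248.1).

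LAMA1, the alpha chain of the first embryonic basement membrane, was read near the lower end of the scale. Its kept probe set 227048_at gave 66.5, 67.3 and 85.6 in CL1-0 without the field, just above the array medians, and 21.4, 5.21 and 5.29 in CL1-5, below them. It passed the filter through CL1-0 alone, with 3 of 3 arrays above the median in each setting and 0 of 3 in CL1-5. The filter itself thus favoured a lower signal in CL1-5. The lines did not overlap, and the difference was −3.11 ± 0.90 (SE, n = 3 per line, adjusted p = 0.0325, limma). With low signals raised to the array median a difference of −0.12 was left (adjusted p = 0.696), so its size rests on signals below the median. The call also ended without replicate 1, 2 or 3 of CL1-0 without the field (adjusted p = 0.0739, 0.0832 and 0.101), replicate 2 or 3 of CL1-5 without it (0.0966 and 0.101) or replicate 2 or 3 of CL1-0 under it (0.0522 and 0.0527), with a replicate block within each line (0.12) and over all probe sets (0.0508).

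Under the field the same probe set gave 118, 100.02 and 127 on the CL1-0 arrays, against 1.89, 21.8 and 7.61 on those of CL1-5. The lines did not overlap, and all CL1-0 arrays exceeded their medians. LAMA1 differed by −4.07 ± 0.90 (SE, n = 3 per line, adjusted p = 0.00783, limma), or by at least 1.74-fold with low signals raised. A second LAMA1 probe set, 222346_at, exceeded the array median on 1 of 12 arrays, ran from 3.78 to 65.6 and was not tested.

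LAMA4, an alpha chain of vessel and mesenchymal basement membranes, was not kept by any of its 5 probe sets. Of their 60 values 3 exceeded the array median, and signals ran from 1.87 to 81.0 over the 4 groups. The brightest, 216081_at, gave 44.1, 37.2 and 24.1 in CL1-0 and 34.8, 45.4 and 70.1 in CL1-5 without the field, and 40.6, 52.3 and 67.9 against 81.0, 45.2 and 20.1 under it. These groups overlapped. On 2 other LAMA4 probe sets the lines did not overlap in 1 setting, with opposite directions: CL1-5 was lower on 210089_s_at without the field and higher on 202202_s_at under it, at signals of at most 74.6. No order of the groups can be read at this level.

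LAMC1, the gamma chain shared by most laminins, was read by 2 kept probe sets, both above the array median on 12 of 12 arrays. Its brighter probe set 200771_at gave 3186, 1422 and 1807 in CL1-0 and 6338, 2570 and 2368 in CL1-5 without the field. The arrays of the lines overlapped, but CL1-5 was higher at each replicate number (0.99, 0.85 and 0.39), and the difference was 0.75 ± 0.42 (SE, n = 3 per line, adjusted p = 0.268, limma). Under the field it gave 3678, 2096 and 1899 against 3726, 2499 and 3636, a difference of 0.40 ± 0.42 (adjusted p = 0.558). With the replicate number of all groups as a block, LAMC1 was called without the field (adjusted p = 0.0146) and not under it on this probe set (0.161 over all probe sets).

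The second LAMC1 probe set, 200770_s_at, showed the larger gap. It gave 1995, 972 and 770.2 in CL1-0 and 7257, 1807 and 2316 in CL1-5 without the field, with overlap of replicate 1 of CL1-0. Under the field it gave 2019, 773 and 720 in CL1-0 and 8058, 2485 and 2853 in CL1-5, without overlap. The differences were 1.45 ± 0.62 and 1.89 ± 0.62 (SE, n = 3 per line, adjusted p = 0.178 and 0.0691 over all kept probe sets, limma). With the replicate number of all groups as a block they passed at adjusted p = 5.21e-05 and 6.26e-06, and with a block within each line at 0.0805 (not past the test) and 0.023. Replicate 1 was the highest array of every group on both LAMC1 probe sets, by a mean of 1.52 on 200770_s_at and 0.89 on 200771_at. At each replicate number the line difference on 200770_s_at was above 0, from 0.89 to 1.86 without the field and from 1.69 to 2.00 under it.

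**Figure D2:**
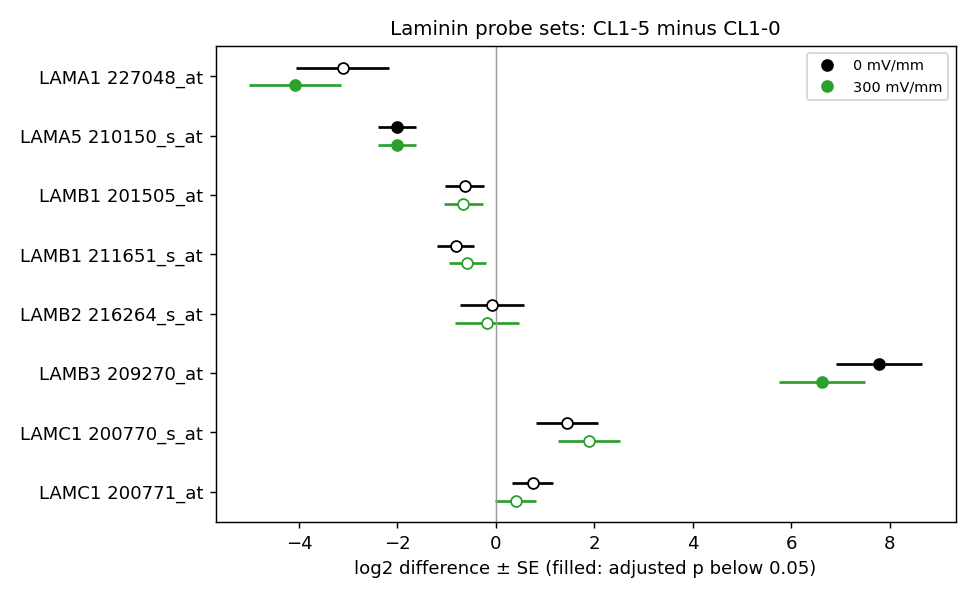
Log2 difference CL1-5 minus CL1-0 for each kept laminin probe set at 0 mV/mm (black) and 300 mV/mm (green), with the SE of the fit over all kept probe sets (3 arrays per group). Filled points have an adjusted p below 0.05. LAMB3 lies at 7.78 and 6.62, LAMA5 at −2.01 in both settings, and LAMA1 is open without the field because its adjusted p was 0.0508 in this fit and 0.0325 in the fit over genes.

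On the kept probe sets the order of the 4 group means followed the line rather than the field for LAMB3, LAMA5, LAMA1, LAMB1 and LAMC1. Both groups of CL1-5 lay above both of CL1-0 for LAMB3 and LAMC1, and below them for LAMA5, LAMA1 and LAMB1. Neighbours in these orders that share a line did not differ past the test. Neither did the lines for LAMB1 and LAMC1, on any kept probe set in the fit without a block. For these genes the order is one of means only. For LAMB2 the order alternated between the lines (9.17 ± 0.97 in CL1-0 under the field, 8.99 ± 0.74 in CL1-5 under it, 8.90 ± 1.08 in CL1-0 and 8.82 ± 0.85 in CL1-5 without it, mean log2 signal ± SD, n = 3), and no neighbours differed beyond their spread.

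The field gave no called laminin gene in either line. In CL1-0, 0 of 6 tested genes passed, as did 0% of all genes, with 133 of all genes at an unadjusted p under 0.05 (limma). In CL1-5, 0 of 6 passed, again with 0% of all genes called and 258 at an unadjusted p under 0.05. The median change of the laminin genes was 0.27 in CL1-0 (0.01 over all genes) and 0.09 in CL1-5 (−0.01 over all genes). These counts do not show that the field left laminin transcripts alone: for LAMA5, the member with the smallest SE, the 95% interval of the change ran from −0.69 to 0.94 in CL1-0 and from −0.69 to 0.93 in CL1-5.

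LAMA1 had the one field difference without overlap. In CL1-0 its signals of 118, 100.02 and 127 under the field all lay above the 66.5, 67.3 and 85.6 without it, at differences of 0.83, 0.57 and 0.57 by replicate number. LAMA1 was the 1 gene of 6 without overlap, and its change was 0.66 ± 0.90 (SE, n = 3 per group, adjusted p = 1, limma), where 3.46% of all genes had groups that did not overlap in this comparison. The SE is that of all 4 groups, and the SD of the log2 signal was 0.21 and 0.18 in CL1-0 against 1.17 and 1.77 in CL1-5, where LAMA1 lay below the array median. Fitted on the CL1-0 arrays alone the SE was 0.34 and the adjusted p still 1. In CL1-5 the LAMA1 pairs differed by −3.497, 2.07 and 0.52, in no common direction. In CL1-5 the groups with and without the field did not overlap for 0 of the 6 genes, against 5.66% of all genes.

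LAMB3 had the largest field difference in CL1-0, 1.21 ± 0.87 (SE, n = 3 per group, adjusted p = 1, limma). Its pairs stood at 0.27, 0.83 and 2.54, the groups overlapped, and 0.43 was left with low signals raised to the array median. In CL1-5, where LAMB3 is bright, the pairs stood at −0.25, 0.40 and 0.01 and the change was 0.05 ± 0.87. Set against each other, the field changes of the lines differed by −1.16 ± 1.23 for LAMB3 and −0.96 ± 1.28 for LAMA1, and 0 of 6 laminin genes passed that test (0% of all genes, 150 at an unadjusted p under 0.05). On the brightest probe sets of LAMA5, LAMB1, LAMB2 and LAMC1 the field changes lay between −0.06 and 0.28 in both lines.

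**Figure D3:**
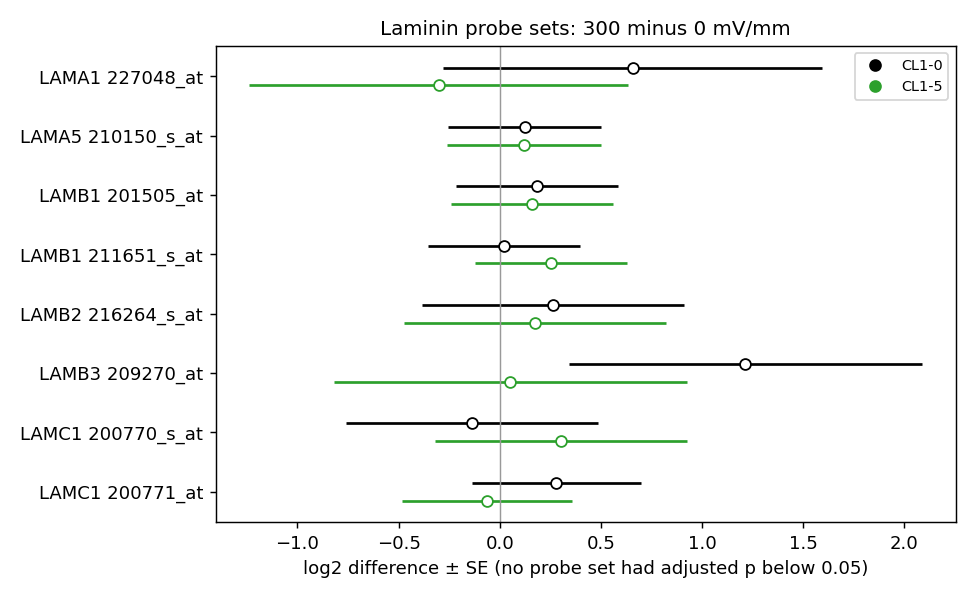
Log2 change from 0 to 300 mV/mm for each kept laminin probe set in CL1-0 (black) and CL1-5 (green), with the SE of the fit over all kept probe sets (3 arrays per group). Open points did not pass the test. LAMB3 in CL1-0 lies farthest from 0, at 1.21, and its SE bar spans 0.87 on each side.

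Of the laminin chains outside the list, LAMC3 was tested, and LAMA2 and LAMB4 did not pass the filter by any probe set. LAMC3, a gamma chain, lay at a mean log2 signal of 8.14 in CL1-0 and 7.55 in CL1-5 without the field (−0.60 ± 0.47, adjusted p = 0.458, limma) and differed by −0.88 ± 0.47 under it (adjusted p = 0.229, and 0.0108 with the replicate number of all groups as a block).

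Laminin receptors included 10 tested genes of 12 listed, and 5 were higher in CL1-5 without the field and 0 lower, with a median difference of 1.62 (9.03% of all genes were called higher and 8.93% lower, with a median of −0.03). ITGA6 and ITGA3, the alpha subunits of the main laminin-binding integrins, were higher by 3.74 ± 0.36 (adjusted p = 2.4e-05, limma) and 3.50 ± 0.65 (adjusted p = 0.0026). The syndecan SDC4, a heparan sulfate proteoglycan that cooperates with integrins, was higher by 2.79 ± 0.23 (adjusted p = 8.42e-06). Their beta partners gave 0.27 ± 0.15 for ITGB1 and 0.18 ± 1.26 for ITGB4, neither past the test. Under the field 5 were higher and 1, ITGA7, lower (−2.68 ± 0.80), of which at least 1.44-fold is left with low signals raised. Of all genes 9.81% were called higher under the field and 9.63% lower.

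Basement membrane partners of laminin split between the directions. Of 15 tested genes of 19 listed, 4 were higher and 4 lower in CL1-5 without the field, and the median was 1.04, beside the same 9.03% and 8.93% of all genes. The type IV collagen genes COL4A1 and COL4A2 were higher by 3.65 ± 0.44 (adjusted p = 0.000118, limma) and 4.94 ± 0.64 (adjusted p = 0.000209), and the matrix protein gene SPARC by 5.93 ± 0.62 (adjusted p = 4.24e-05). COL4A1 was 12.5-fold higher, and with low signals raised COL4A2 was at least 24.1-fold and SPARC at least 23.8-fold higher. COL15A1, the other gene called higher (3.49 ± 0.81, adjusted p = 0.0101, limma), was left at least 1.19-fold higher. The size of its difference thus rests on signals below the median. NID1, the nidogen that bridges LAMC1 and type IV collagen, differed by −1.61 ± 0.25 (adjusted p = 0.000755), the basement membrane protein gene FREM2 by −2.11 ± 0.37 (adjusted p = 0.00174) and NTN4, a laminin-related netrin that binds LAMC1, by −5.53 ± 1.14 (adjusted p = 0.00526), all lower in CL1-5. With low signals raised NTN4 was at least 15.02-fold lower. Under the field 3 were higher and 4 lower, beside 9.81% and 9.63% of all genes.

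Proteases listed for cutting laminin or activating enzymes that do were higher in CL1-5 in 5 of 7 tested cases without the field (8 listed) and in 6 of 7 under it, with 0 lower and a median of 2.62 and 3.40 (9.03% and 9.81% of all genes were called higher). PLAU, the urokinase that activates plasminogen, differed by 9.92 ± 0.54 (adjusted p = 4.84e-07, limma), its relative PLAT by 6.25 ± 1.10 (adjusted p = 0.00194), and the membrane protease MMP14, which cleaves laminin chains, by 3.41 ± 0.44 (adjusted p = 0.000224). In CL1-0 PLAU and PLAT lay low, and with low signals raised they were at least 364-fold and at least 13.3-fold higher in CL1-5. BMP1, which trims laminin chains outside the cell, differed by 1.13 ± 0.36 (adjusted p = 0.0503) and passed under the field at 1.22 ± 0.36 (adjusted p = 0.0345). In the field comparisons 0 genes of these lists passed in either line.

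**Figure D4:**
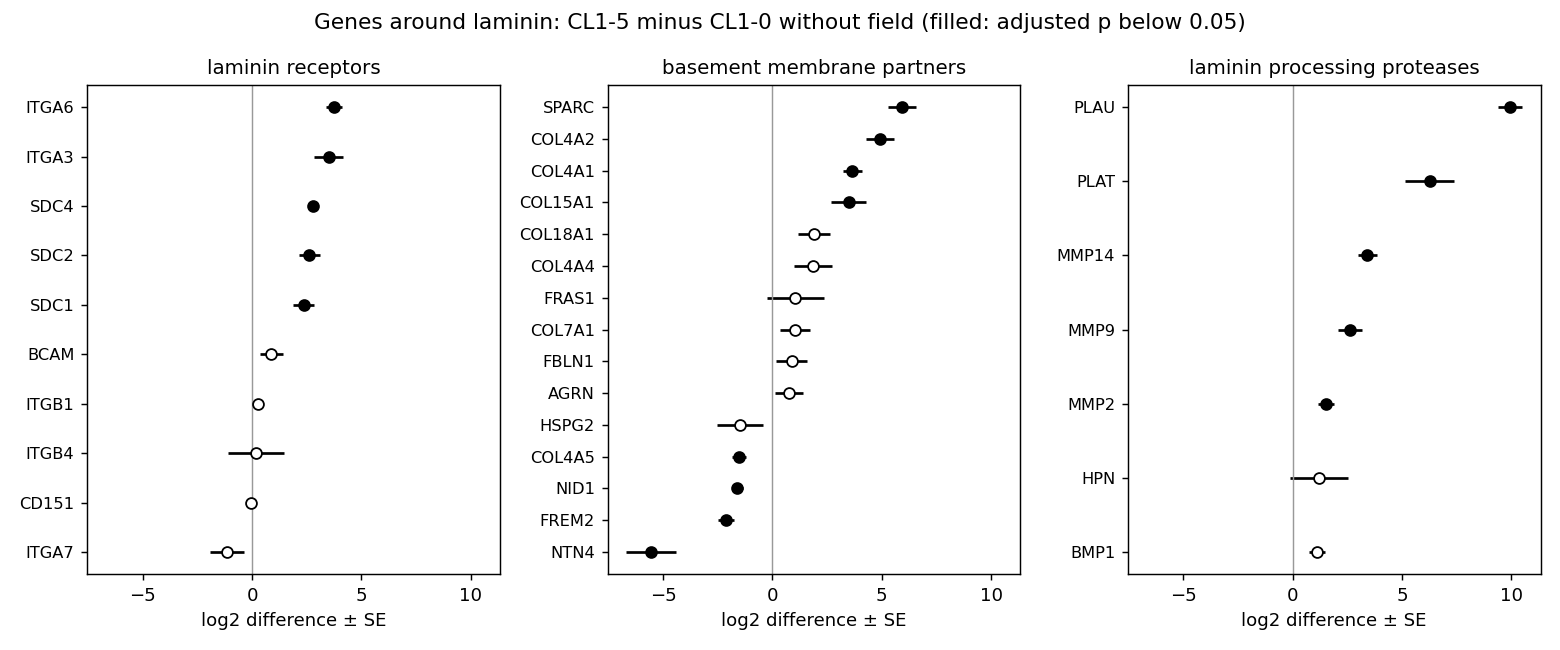
Log2 difference CL1-5 minus CL1-0 without the field for the tested laminin receptors, basement membrane partners and laminin processing proteases, with the SE of the fit over genes (3 arrays per line). Filled points have an adjusted p below 0.05. Called receptors and proteases lie to the right of 0, and basement membrane partners are called on both sides, from NTN4 at −5.53 to SPARC at 5.93.

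The genes most like the called laminins over the 12 arrays were ranked by the root mean square difference of log2 signals, each gene centred on its own mean. For LAMB3 these were MALL, SP100 and ITPKB at 0.56, 0.71 and 0.75, where the median over all genes was 3.83. For LAMA5 they were PIM1, ISYNA1 and MGAT1 at 0.22, 0.22 and 0.24 (median 1.18), and for LAMA1 IGFBP2, IRX1 and KIAA0319 at 0.53, 0.53 and 0.57 (median 2.04). The 12 arrays fall into 2 lines, so likeness here is mostly a like line difference, 7.24, 6.40 and 8.22 without the field for the LAMB3 group.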

How the data were processed

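The authors deposited linear array signal intensity values made with MAS5, per the submitters' processing notes. Its version is not given in the sources used here, nor are filters or detection calls. The mean with 2% trimmed at both ends lay between 500.07 and 500.08 on the 12 arrays, so arrays were not scaled again. Before taking log2, 3691 values below 1 were raised to 1. Of 54675 probe sets 31890 passed the filter. In the probe annotation used, 41091 carry 1 symbol, 1801 several and 11721 none, and 62 are controls. Those with several symbols were not used for genes.

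Each gene was represented by the kept probe set whose mean log2 value was highest. Differences came from limma 3.58.1 in R 4.3.3 with the data.table package (version 1.17.8) (lmFit, eBayes with trend, 4 group means), adjusted over 13882 genes or over all kept probe sets. The number of arrays limits the precision. Genes named outside the members are up to 3 per list and direction with the largest called difference without the field, and the 3 nearest patterns. ITGB1, ITGB4, ITGA7, COL15A1 and BMP1 were chosen after their values were seen. Members and lists were chosen with earlier results of these data known, and the steps were tested on simulated data.

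Replicate numbers paired the arrays only in part. After group means were removed, same-numbered arrays correlated at 0.189 to 0.471 between the lines without the field and 0.245 to 0.424 under it. With and without the field they correlated at 0.346 to 0.609 in CL1-0 and 0.187 to 0.551 in CL1-5. Other numbers reached 0.284 at most. In CL1-5 replicate 3 without the field correlated at 0.284 with replicate 2 under it and at 0.187 with replicate 3. Without the field, replicate 2 of CL1-0 and replicate 3 of CL1-5 reached 0.227, against 0.189 for replicate 3 of both. Replicate 1 correlated negatively with replicates 2 and 3 throughout. The labels state no pairing, so the block is an alternative. Within each line it is a fixed term for the field and a random one (duplicateCorrelation) between lines. The block across all groups was chosen after seeing the data. The spike-in batch was known from an earlier analysis. Other alternatives were quantile normalization, centring on array medians, adding 5.05 (the 10th percentile) before log2, testing without a filter, a stricter filter (above the 60th percentile on 6 arrays), low values raised to the array median, averaged probe sets, no trend, only the groups compared and each array left out.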

Additional observations from a re-analysis of the deposited data

Results flagged for a closer look

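A probe set outside the comparisons of genes, 229570_at, carries the symbols of both LAMA5 and its antisense gene LAMA5-AS1 and was not used for either. In CL1-5 its signal was 273.9 to 323.2 under the field and 211.3 to 264.6 without it, so all field arrays lay above all arrays without a field, with a mean log2 difference of 0.26. In CL1-0 the groups overlapped (85.6 to 200.8 and 30.6 to 248.1). Of all tested genes 5.66% had groups that did not overlap in CL1-5. This was the only such case in either line among the probe sets of unlisted laminin chains, laminin antisense genes, LAMB2P1 and untested member ones. The probe set was kept, and in the limma fit over all 31890 kept probe sets 0 were called for the field in CL1-5. Signals of LAMA5 and the antisense gene cannot be told apart on this probe set.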

How the results depend on the processing

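The calls of LAMB3 and LAMA5 between the lines held under every alternative run, and 0 laminin genes were called for the field or its difference between the lines under any. The line differences of LAMB3 ran from 5.35 to 7.78 and of LAMA5 from −2.25 to −1.89 over the alternatives, and with each array left out LAMB3 from 7.23 to 8.68 without and from 5.76 to 7.32 under the field and LAMA5 from −2.34 to −1.70. Laminin genes called without the field numbered 3, and 5 with the replicate block across all groups, with a block for the spike-in batch and on the arrays with spike-in signal alone, where LAMB1 and LAMC1 joined. They numbered 4 with averaged probe sets, where LAMB1 joined. They numbered 2, without LAMA1, with the stricter filter, with low values raised and with the replicate block within each line. Under the field they numbered 3, 4 with the replicate block across all groups and with the batch block, where LAMB1 joined, 5 on the arrays with spike-in signal alone and 2 with the stricter filter. Laminin probe sets called numbered 7 (2 otherwise) without and 6 (3 otherwise) under the field with the replicate block across all groups, in which all called probe sets numbered 9094 and 10069, against 3864 and 4286. All called genes numbered 2492 without and 2699 under the field, 4926 and 5289 with that block, 4852 and 5207 with the batch block, and 4284 and 4416 on the arrays with spike-in signal alone. The replicate block within each line changed no other laminin call than those given for LAMA1 and LAMC1 on 200770_s_at. It also ended that of LAMA1 under the field over all probe sets (adjusted p = 0.0571). The stricter filter left LAMA1 untested. Only the groups compared gives no separate fit for the field response difference, which uses all groups.

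The values that changed sign were uncalled before and after. On the arrays with spike-in signal alone LAMB2 differed by 0.018 between lines without the field. There the field changed LAMA5 by −0.10 in CL1-0, and LAMA1 and LAMC1 by 1.30 and 0.29 in CL1-5, and the field response difference was 0.72 for LAMA1, 0.36 for LAMA5 and 0.29 for LAMB1. With averaged probe sets LAMC3 differed by 0.16 without the field, LAMC1 changed by 0.12 in CL1-5, and the field response difference was 0.10 for LAMB1 and 0.049 for LAMC1. It was 0.026 for LAMA5 under quantile normalization, and 0.079 for LAMA5 and 0.059 for LAMB1 with centred arrays. The cause was not tested.

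With each array left out, LAMB2 ran from −0.57 to 0.51 between the lines without the field and from −0.59 to 0.38 under it. The field change in CL1-0 ran from −0.18 to 0.38 for LAMA5, −0.23 to 0.51 for LAMB1, −0.29 to 0.85 for LAMB2 and −0.01 to 0.61 for LAMC1 (lowest value −0.015). In CL1-5 it ran from −1.14 to 0.62 for LAMA1, −0.14 to 0.45 for LAMA5, −0.11 to 0.48 for LAMB1, −0.24 to 0.66 for LAMB2, −0.35 to 0.60 for LAMB3 and −0.32 to 0.39 for LAMC1. The field response difference ran from −0.27 to 0.32 for LAMA5, −0.35 to 0.39 for LAMB1, −0.68 to 0.47 for LAMB2 and −0.67 to 0.11 for LAMC1. Low signal limits LAMA1 in CL1-5, where all its values lie below the array median, and LAMA4, of whose 60 values 3 exceed it.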
